A study of Mus musculus with 6 samples.

Results

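The androgen-forming enzyme gene Cyp17a1 was followed together with 7 genes used as markers of ovarian theca cells or of hedgehog signalling, which are Insl3, Aldh1a1, Hhip, Ptch1, Gli1, Nr2f2 and Tcf21. The 8 genes were chosen by their annotation and by their intensities on the same 6 arrays described here, to ask whether Cyp17a1 moved with theca markers or alone. Their levels are therefore a description, and no test was made of them. Of the 8 genes, 7 had a probe set that names them alone, out of 18194 genes so measured on the array. Insl3, a peptide hormone of theca cells, was matched only by 2 probe sets that also name Jak3, so no value is given for it. The 7 measured genes had 18 probe sets. For 6 of them the mean log2 intensity of the brightest probe set reached 6 (intensity 64), a floor set just above the array medians and taken as the limit of readable signal. Gli1 stayed under that floor on all 6 arrays.

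RNA came from granulosa cells of 23-day-old immature mice given 5 IU of eCG, which drives follicle growth, 48 h earlier. The wild type group and the knockout group were each sampled before hCG and at 2.5 h and 4 h after 5 IU of hCG, which takes the place of the luteinizing hormone surge. Each of these 6 groups had 1 array, so every difference is between single arrays, without error or test. The knockout genotype is given as ERK1 knockout and ERK2 fl/fl;Cyp19CRE. The kinase ERK1 is thus missing from all cells, while ERK2 is deleted where the Cyp19 promoter drives Cre recombinase, a promoter active in granulosa cells. Whether a sample pooled several mice is not given in the sources used here.

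Theca cells lie outside the follicle's basement membrane and granulosa cells inside it. Theca cells make androgens through CYP17A1, and granulosa cells, which are known for little Cyp17a1, convert those androgens to estrogens. Granulosa cells secrete the hedgehog ligands IHH and DHH, which bind the receptor PTCH1 on theca cells. Bound PTCH1 frees SMO, and GLI factors then switch on targets that include Gli1, Ptch1 and Hhip, so levels of these targets are a common readout of the pathway. HHIP is a cell-surface inhibitor that binds the ligands.

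Granulosa markers were bright in all preparations. Inhba, a subunit of activin and inhibin, stood between 23868 and 34790 on all 6 arrays, and Inha between 24146 and 33651. Genes of other ovarian cells were also present. Acta2, of smooth muscle and outer theca, ranged from 2861 to 4661, Col3a1, a collagen of stroma, from 3769 to 5138, and Gdf9, an oocyte factor, from 2053 to 6752. Over the floor were also 6 of 10 endothelial genes, such as Kdr (205 to 457), and 9 of 11 macrophage and leukocyte genes, such as Lyz2 (376 to 640), although Pecam1 (27 to 32) and Ptprc (34 to 47) were under it. The ratio of 3' to 5' Gapdh probe sets is a measure of RNA integrity. At 0 h, 2.5 h and 4 h it was 4.79, 3.55 and 4.01 in wild type, against 5.21, 3.99 and 4.24 in knockout. In both genotypes it was highest on the 0 h array, which every response to hCG has as its base. The deleted kinases themselves were not analysed here, and the genotypes are taken from the labels.

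Cyp17a1 was the member with the largest difference between genotypes after hCG. Its intensity in wild type was 1994 before hCG, 2037 at 2.5 h and 1399 at 4 h. In knockout it was 1845, 14251 and 13997. The 2 knockout arrays after hCG thus stood far above the other 4, and before hCG the genotypes differed by 1.08-fold. Knockout exceeded wild type by 2.81 on the log2 scale at 2.5 h, about 7-fold, and by 3.32 at 4 h, about 10-fold. In RNA from a mixed preparation, more or fewer cells that express a gene and more or less RNA per cell cannot be told apart. This holds for Cyp17a1 and for the theca markers alike.

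The split came from the knockout response. Cyp17a1 was 7.72-fold higher at 2.5 h and 7.59-fold higher at 4 h than on the knockout 0 h array, which both values share. In wild type it was 1.02-fold higher and then 1.43-fold lower. On the log2 scale the knockout response exceeded the wild type response by 2.92 at 2.5 h and by 3.43 at 4 h. Among the genes over the floor, which number 11153, 2 had a larger value of that difference at 2.5 h and 6 at 4 h. Cyp17a1 is represented by 1 probe set, so no other probe set could be set beside it.

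**Figure D1:**
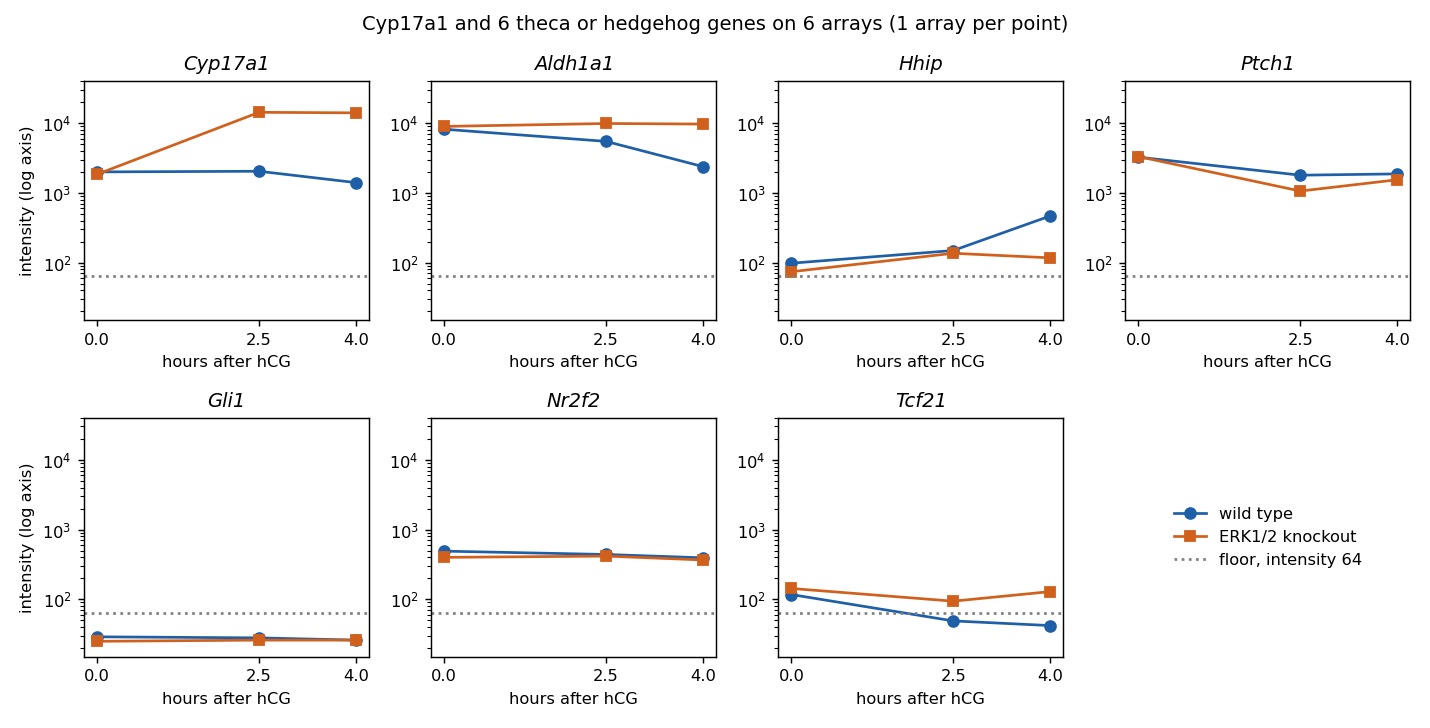
Intensity (log axis) of the brightest probe set of each of 7 genes against hours after hCG, with wild type as circles, knockout as squares and 1 array per point; the dotted line is the floor of 64. Cyp17a1 separates by genotype at 2.5 h and 4 h, Aldh1a1 and Tcf21 are lower in wild type at 4 h, Hhip is higher in wild type at 4 h, and Ptch1 is lower after hCG in both genotypes.

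The other members are described by a rule of size, in which a gene counts as called when 2 arrays differ at least 2-fold and the brighter one is at 64 or more. Before hCG, 0 of the 6 members over the floor were called between genotypes, against 1.53% of 11153 genes. At 2.5 h, 1 of 6 was called, Cyp17a1, against 4.2% of all genes. At 4 h, 4 of 6 were called, against 8.52%. Of these 4, Cyp17a1, Aldh1a1 and Tcf21 were higher in knockout and Hhip was lower. Without Cyp17a1, the median difference of the other 5 (log2) was 0.03 before hCG, -0.08 at 2.5 h and -0.10 at 4 h, beside -0.03, 0.14 and 0.20 for all genes. The members were picked with these values known, so nothing is read from their shares.

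Within a genotype the called members were not the same ones. In wild type against 0 h, Tcf21 was called lower at 2.5 h (1 of 6 members, 4.3% of all genes). At 4 h Aldh1a1 and Tcf21 were called lower and Hhip higher (3 of 6, 14% of all genes). In knockout, Cyp17a1 was called higher and Ptch1 lower at both 2.5 h (2 of 6, 6.92% of all genes) and 4 h (2 of 6, 8.44%). Cyp17a1 was the only member called higher in knockout after hCG.

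**Figure D2:**
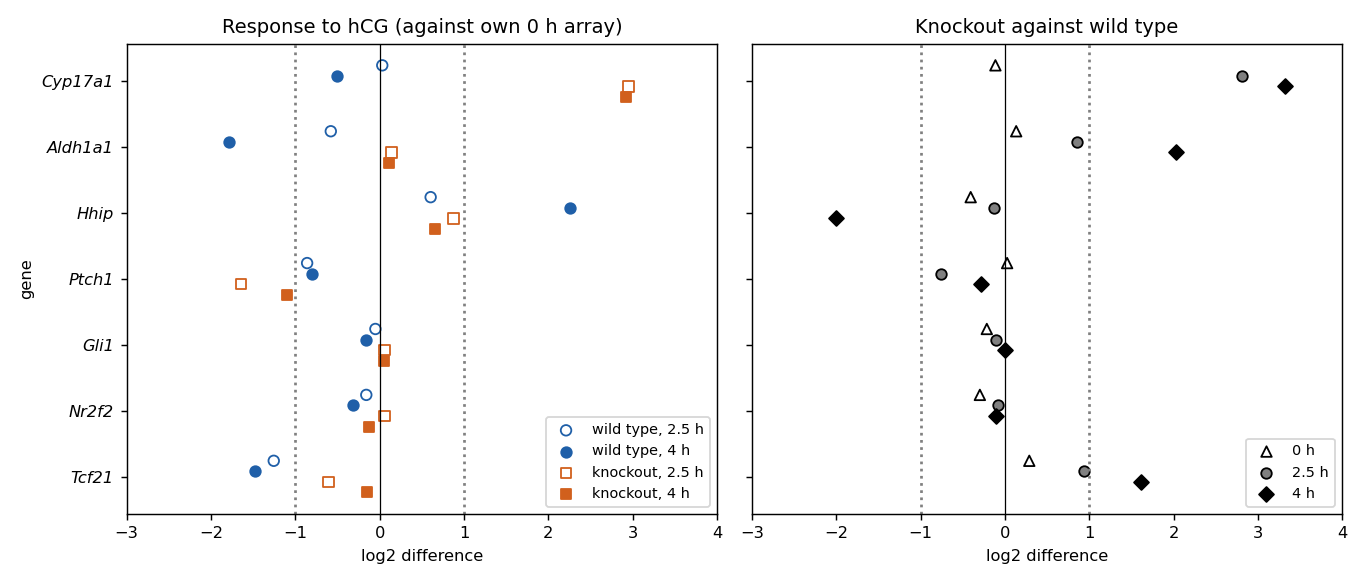
Log2 differences of 7 genes, on the left after hCG against the 0 h array of the same genotype (open symbols 2.5 h, filled 4 h) and on the right knockout against wild type at each time; dotted lines mark 2-fold and each point compares 2 arrays. In knockout after hCG, Cyp17a1 lies near 3, Hhip between 0 and 1, Aldh1a1 and Nr2f2 near 0 and Ptch1 under -1.

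Aldh1a1, a retinaldehyde dehydrogenase used as a marker of steroidogenic theca, was also higher in knockout than in wild type at 4 h, but through its wild type level. Its intensity in wild type was 8155 before hCG, 5458 at 2.5 h and 2369 at 4 h. In knockout it was 8950, 9852 and 9671. The 3 knockout arrays lay within 1.10-fold of the lowest of them, and the wild type array at 4 h was the low one, 3.44-fold under its 0 h level. The genotypes differed by 1.10-fold before hCG, 1.81-fold at 2.5 h and 4.08-fold at 4 h. So both genes were higher in knockout at 4 h, Cyp17a1 with an increase in knockout and Aldh1a1 with a decrease in wild type.

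Tcf21, a transcription factor of mesenchymal and stromal progenitors, was dim and, like Aldh1a1, lowest in wild type at 4 h. It stood at 117, 49 and 42 in wild type, against 143, 94 and 129 in knockout. The wild type arrays after hCG were under the floor, and the 3 knockout arrays above it. The difference between genotypes was 3.07-fold at 4 h. A second probe set of Tcf21 read 25 to 30 on all arrays, and with the mean of both probe sets the log2 difference at 4 h was 0.91 instead of 1.62, which is no longer 2-fold. The wild type differences of Tcf21 likewise missed 2-fold with that mean.

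Nr2f2, the nuclear receptor COUP-TFII, is expressed in theca and stromal cells and was nearly level. Its brightest probe set read 490, 439 and 393 in wild type, against 399, 416 and 366 in knockout. The largest difference between genotypes was 1.23-fold, before hCG, with knockout the lower. Its 6 probe sets ranged from 23 to 490, and none of the 6 was called between genotypes at any time.

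Among hedgehog targets, Hhip and Ptch1 differed from 0 h in opposite directions after hCG. Hhip read 98, 149 and 467 in wild type, against 74, 136 and 117 in knockout. The wild type array at 4 h was the high one, 4.77-fold above 0 h, and the other 5 lay between 74 and 149. At 4 h knockout was 3.99-fold lower, after 1.10-fold lower at 2.5 h. All 4 probe sets of Hhip gave this order at 4 h, with log2 differences of -1.58 to -2.33 between genotypes. In wild type from 0 h to 4 h they gave 1.58 to 2.92, although 2 of the 4 began at 22 and 34, under the floor.

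Ptch1, the hedgehog receptor and itself a target, was lower after hCG in both genotypes by its brightest probe set. It read 3247, 1789 and 1868 in wild type, against 3308, 1060 and 1540 in knockout. In knockout it was 3.12-fold lower at 2.5 h and 2.15-fold lower at 4 h, in wild type 1.81-fold and 1.74-fold, which did not reach 2-fold. Between genotypes it differed by 1.02-fold, 1.69-fold and 1.21-fold at the 3 times. Of the other 2 probe sets of Ptch1, one read 62, 53 and 64 in wild type, against 116, 54 and 61 in knockout, and the last read 33 to 40 throughout. With the mean of all 3 the log2 responses in knockout were -0.97 and -0.68, neither of them 2-fold. Gli1, the transcription factor at the end of the pathway and its most used readout, read 25 to 29 on all 6 arrays, under the floor.

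**Figure D3:**
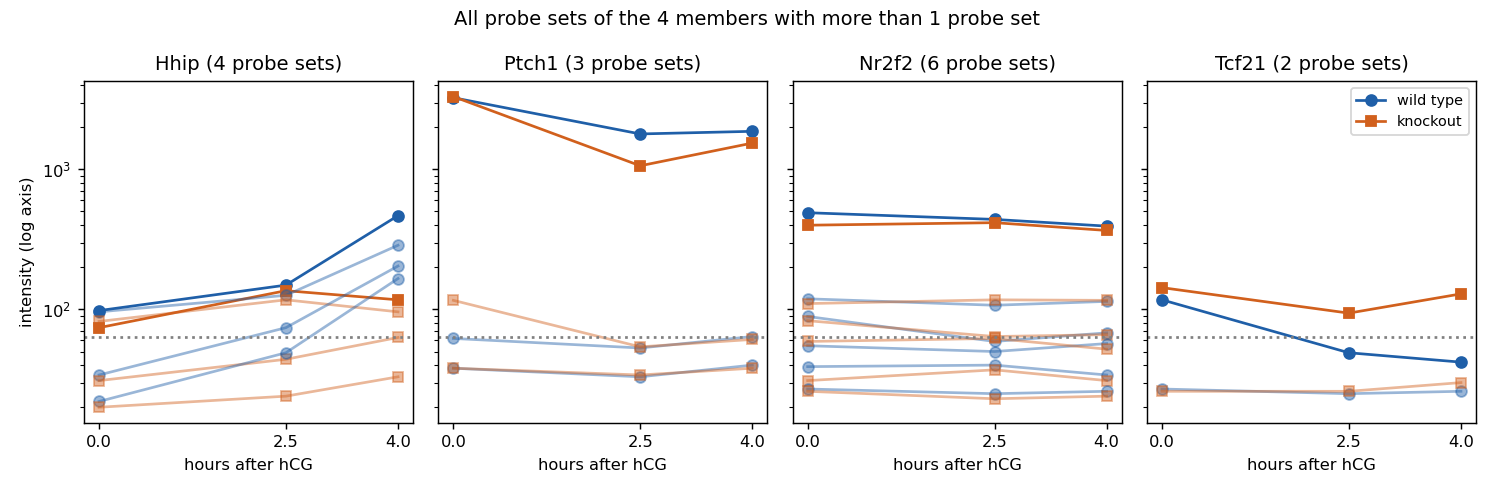
Intensity (log axis) against hours after hCG for all probe sets of Hhip (4), Ptch1 (3), Nr2f2 (6) and Tcf21 (2), with wild type as circles and knockout as squares; solid colour is the brightest probe set, pale the others, and the dotted line is 64. All 4 probe sets of Hhip end higher in wild type than in knockout, whereas the probe sets of Ptch1 differ among themselves and the second one of Tcf21 lies near 27 on all arrays.

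The sequence before the start site is shown for Hhip, Tcf21 and Aldh1a1, the 3 members called beside Cyp17a1 at 4 h. RefSeq promoters of build GRCm38.p6 were at hand for 6 of the 8 members, with 2 starts for Aldh1a1; none is printed for Cyp17a1 or Gli1. The 250 bases before each start were searched on both strands for GACCACCCA (GLI factors), TGACGTCA (the cAMP response element), CAAGGTCA (NR5A1, a steroidogenic factor) and AGATAA (a motif of the GATA family). Hhip held TGACGTCA from 75 to 68 bases before the start, as did 1.55% of 32851 promoters. Tcf21 and one start of Aldh1a1 held AGATAA, found in 9.99% of promoters, from 31 to 26 and from 32 to 27 bases before the start. The 7 member promoters held 0 matches to GACCACCCA (0.225% of promoters) and 0 to CAAGGTCA (1.33%). Matches are in capitals in the sequences, and a match describes letters, not binding.
Hhip (chr8:80058009-80058258, minus strand): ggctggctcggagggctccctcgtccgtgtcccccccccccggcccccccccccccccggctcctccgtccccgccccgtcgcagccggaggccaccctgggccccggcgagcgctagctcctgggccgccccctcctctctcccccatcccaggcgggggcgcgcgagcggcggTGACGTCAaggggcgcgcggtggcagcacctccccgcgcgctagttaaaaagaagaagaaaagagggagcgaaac
Tcf21 (chr10:22820144-22820393, minus strand): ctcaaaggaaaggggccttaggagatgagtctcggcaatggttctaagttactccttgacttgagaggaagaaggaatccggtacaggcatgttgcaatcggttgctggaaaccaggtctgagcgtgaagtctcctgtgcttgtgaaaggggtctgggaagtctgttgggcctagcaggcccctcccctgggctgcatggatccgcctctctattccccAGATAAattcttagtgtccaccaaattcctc
Aldh1a1 (chr19:20601718-20601967, plus strand): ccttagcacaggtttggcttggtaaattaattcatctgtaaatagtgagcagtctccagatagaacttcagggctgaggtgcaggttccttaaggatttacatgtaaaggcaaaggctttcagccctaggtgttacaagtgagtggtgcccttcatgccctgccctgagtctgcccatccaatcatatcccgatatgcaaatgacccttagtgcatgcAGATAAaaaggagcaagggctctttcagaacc

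The wider hedgehog pathway gave no common direction. Of 22 listed genes 21 were measured and 19 were over the floor. At 4 h, Ihh and Cdon were called higher in knockout and Gli3 and Hhip lower (2 and 2 of 19), with a median log2 difference of 0.12 beside 0.20 for all genes. Of all 11153 genes, 558 were called higher and 392 lower at 4 h (8.52%), and 4.2% were called at 2.5 h. Hhip is itself a member chosen with these values known. At 2.5 h Sufu, an inhibitor of GLI factors, was 2.24-fold higher and Gli3 2.02-fold lower in knockout; the other 2 probe sets of Sufu read 17 to 42. Averaging all probe sets of a gene left 1 higher and 1 lower at 4 h, and 0 and 0 at 2.5 h.

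The ligand genes expressed by granulosa cells were lowest in wild type at 4 h. Ihh read 916, 591 and 244 in wild type, against 744, 1014 and 625 in knockout, a 2.56-fold higher knockout level at 4 h. Dhh read 2133, 1604 and 702 in wild type, against 2001, 1839 and 1297 in knockout, 1.85-fold higher at 4 h. Cdon, a co-receptor for the ligands, was 2.15-fold higher in knockout at 4 h (827 against 384). Gli3, a GLI factor that often acts as a repressor, was highest in wild type at 4 h, like Hhip. It read 74, 101 and 266 in wild type, against 95, 50 and 91 in knockout, which is 2.92-fold lower in knockout at 4 h; its next brightest probe set differed by -1.19 (log2).

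Steroid enzymes showed a mixed picture around Cyp17a1. Of 24 listed genes 17 were measured and 14 over the floor. In knockout at 4 h against 0 h, 6 of the 14 were at least 2-fold higher and 0 lower, while 8.44% of all genes were called (432 higher, 509 lower). The 6 were Star, Cyp11a1, Fdx1, Scarb1, Sult1e1 and Cyp17a1 itself. Cyp17a1 was chosen from these values, and Sult1e1 read 20 before hCG and 78 at 4 h, near the floor. The median was 0.62 (log2), beside 0.02 for all genes. In wild type, 5 were higher and 1 lower, while 14% of all genes were called (548 higher, 1016 lower), and the median was 0.24, beside -0.21. Cyb5a, the cytochrome that favours androgen formation by CYP17A1, read 9582 to 15717 on the 6 arrays with no 2-fold difference. The electron donor gene Por was not analysed here.

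Some other genes of the list differed between genotypes at 4 h, in both directions, and others did not reach 2-fold. Cyp11a1 was 1.03-fold lower in knockout at 4 h (12909 against 13351), Fdx1 1.18-fold higher and Hsd3b1 1.88-fold higher. Before hCG Cyp11a1 was 2.65-fold lower in knockout. From 0 h to 4 h it differed by 4.97-fold in knockout and 1.94-fold in wild type, higher at 4 h in both. Star, which delivers cholesterol to mitochondria, read 304, 14678 and 16259 in wild type, against 69, 635 and 619 in knockout. It was 26.3-fold lower in knockout at 4 h. Hsd17b1, which forms estradiol in granulosa cells, read 13111, 9121 and 3530 in wild type, against 12681, 18764 and 17381 in knockout. That is 4.92-fold higher in knockout at 4 h, mostly through the wild type decrease, as for Aldh1a1. Lower in knockout at 4 h were Sult1e1, the estrogen sulfotransferase (78 against 18464), Akr1c18, a progesterone-clearing enzyme (3.08-fold), and Hsd17b7, an enzyme of sterol and estradiol synthesis (2.24-fold). Hsd17b7 was already 2.43-fold lower in knockout before hCG.

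Among 24 genes listed as regulators of Cyp17a1 or of steroid cells, 22 were over the floor. At 4 h, 5 were called higher in knockout and 2 called lower (median 0.27, beside 0.20 for all genes), or 3 and 1 when all probe sets of a gene were averaged. Of all 11153 genes, 558 were called higher and 392 lower (8.52%), or 6.44% with probe sets averaged. The list was chosen with earlier results of these data known, so nothing is read from its share. Gata4, a transcription factor of gonadal somatic cells, read 840, 672 and 361 in wild type, against 729, 1503 and 1302 in knockout, 3.61-fold higher at 4 h. Nr4a1, an orphan nuclear receptor induced by gonadotropins, read 812, 6344 and 2192 in wild type, against 346, 7241 and 7336 in knockout. In the 2 knockout arrays after hCG it stayed at one level, whereas the wild type array at 4 h was below that at 2.5 h. Nr5a2, the nuclear receptor LRH-1, read 10104, 8126 and 5450 in wild type, against 11386, 16061 and 16328 in knockout, where its 3 highest values lie.

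The remaining called regulators lay in both directions. Foxl2, a factor of granulosa identity, was 2.77-fold higher in knockout at 4 h, and Foxo1, a factor restrained by growth signals, 2.04-fold. Foxo3 differed most at 2.5 h, by 2.36-fold (771 against 327). Egr1, an immediate early factor, was already 7.88-fold lower in knockout before hCG (273 against 2152). It was 37.7-fold lower at 2.5 h and 23.9-fold lower at 4 h, and read 259 and 234 in knockout at those times. Crem, a cAMP-responsive factor, was level between genotypes at 2.5 h (3940 in knockout, 3886 in wild type) and 2.13-fold lower in knockout at 4 h.

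Theca markers outside the 8 genes lay on both sides of wild type. Of 16 listed, 13 were measured and 8 over the floor, and 0 of the 8 were called between genotypes at any of the 3 times. Of all genes, 1.53% were called before hCG, 4.2% at 2.5 h and 8.52% at 4 h. So 0 of 8 is near the share of all genes. The widest differences were 1.83-fold higher in knockout for Ano1 at 4 h and Agtr2 at 2.5 h, and 1.75-fold lower for Enpep before hCG. At 4 h, 4 were above and 4 below wild type, and their median log2 difference was 0.01 (-0.17 with cyclic loess scaling), beside 0.20 (0.02) for all genes. The summed intensity of the 13 was 18986, 15851 and 16287 in wild type, against 21252, 19365 and 18649 in knockout. Under the floor were 5 of the 13 (Bmp4, Lhx9, Hsd17b3, Thbs2 and Anpep). In knockout the sum was lower after hCG than before it, but that direction rests on Ldhb. Without Ldhb, a choice made after seeing the data, the other 12 summed to 10649 before hCG and to 12766 and 12687 after it in knockout, and to 9866 to 10474 in wild type. That higher knockout sum after hCG rests in turn on Fbln1, which read 5451 before hCG and 8024 and 7594 after it in knockout. The part of theca cells in the Cyp17a1 difference was not tested. The 2 brightest members are not particular to theca: Ldhb read 5962 to 10603, and Fbln1 read 5105 to 5589 in 4 arrays and 8024 and 7594 in knockout after hCG.

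The fibroblast, smooth muscle, endothelial and macrophage lists had 0 genes called higher in knockout at 4 h. Of all 11153 genes over the floor, 558 were called higher and 392 lower then (8.52% called). The share called was 1.53% before hCG and 4.2% at 2.5 h, so counts of 0 in lists this short are near those shares. The median log2 difference of all genes at 4 h was 0.20 (0.02 with cyclic loess). Of 10 fibroblast genes over the floor, 0 were called higher and 2 called lower in knockout at 4 h (Pdgfrb and Mgp, median 0.16). The brightest, Col3a1 and Col1a2, differed by under 2-fold at each time. The summed level of the 12 listed ran from 10681 to 13066 in wild type and from 9362 to 11836 in knockout. Of 5 smooth muscle genes over the floor, 0 were called at any time between genotypes, Acta2 and Tagln included, and the 9 listed summed to 4017 to 5452 in wild type and 3544 to 4716 in knockout. Endothelial genes were all below wild type at 4 h (6 of 6, 0 by 2-fold, median -0.29), with Kdr at 282 against 457 and Esam at 243 against 283. Macrophage and leukocyte genes had a median of 0.46 at 4 h with 0 of 9 called, and a summed level of 1479 to 1536 in wild type and 1545 to 2073 in knockout, highest on the knockout arrays after hCG. Its brightest genes, Lyz2 and Csf1r, read 640 and 451 in knockout at 4 h, against 376 and 256 in wild type. The other probe sets of Csf1r differed less, by 0.30 and 0.29 (log2) against 0.82. Surface epithelium genes had 2 of 7 higher at 4 h (Krt7 and Msln, 1 with cyclic loess) and sums of 2689 to 3102 against 2954 to 3891; the brightest, Krt8 and Upk3b, were not called. The part of these cells in the Cyp17a1 difference was not tested.

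Granulosa genes were the list with the largest shift between genotypes at 4 h. Of 14 over the floor, 14 were above wild type and 6 by at least 2-fold, among them Inhbb, Fshr and Hsd17b1; of all genes 8.52% were called, 558 of 11153 higher. The median was 0.79 beside 0.20 for all genes, or 0.57 beside 0.02 with cyclic loess. In wild type 8 of 14 were at least 2-fold lower at 4 h than at 0 h, and in knockout 1 of 14 (Esr2). The summed level of the list was 159801 at 0 h and 97648 at 4 h in wild type, against 154033 and 174115 in knockout. Aldh1a1, Tcf21 and Ihh, the last of which is part of this sum, were also lowest on the wild type array at 4 h. Among the granulosa genes called between genotypes, Foxl2, Nr5a2, Hsd17b1 and Ihh also belong to lists described above, so they are no separate result. Oocyte genes were higher in knockout before hCG (9 of 9, median 0.91) and at a median of -0.07 at 4 h (0.02 when probe sets were averaged), with Gdf9 and Oosp1 the brightest. Against the knockout 0 h array, the base of every knockout response, 9 of 9 were called lower at 2.5 h and 4 h. Their medians were -1.27 and -1.45, while 6.92% and 8.44% of all genes were called. In wild type 0 of 9 were called (medians -0.77 and -0.60), while 4.3% and 14% of all genes were.

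**Figure D4:**
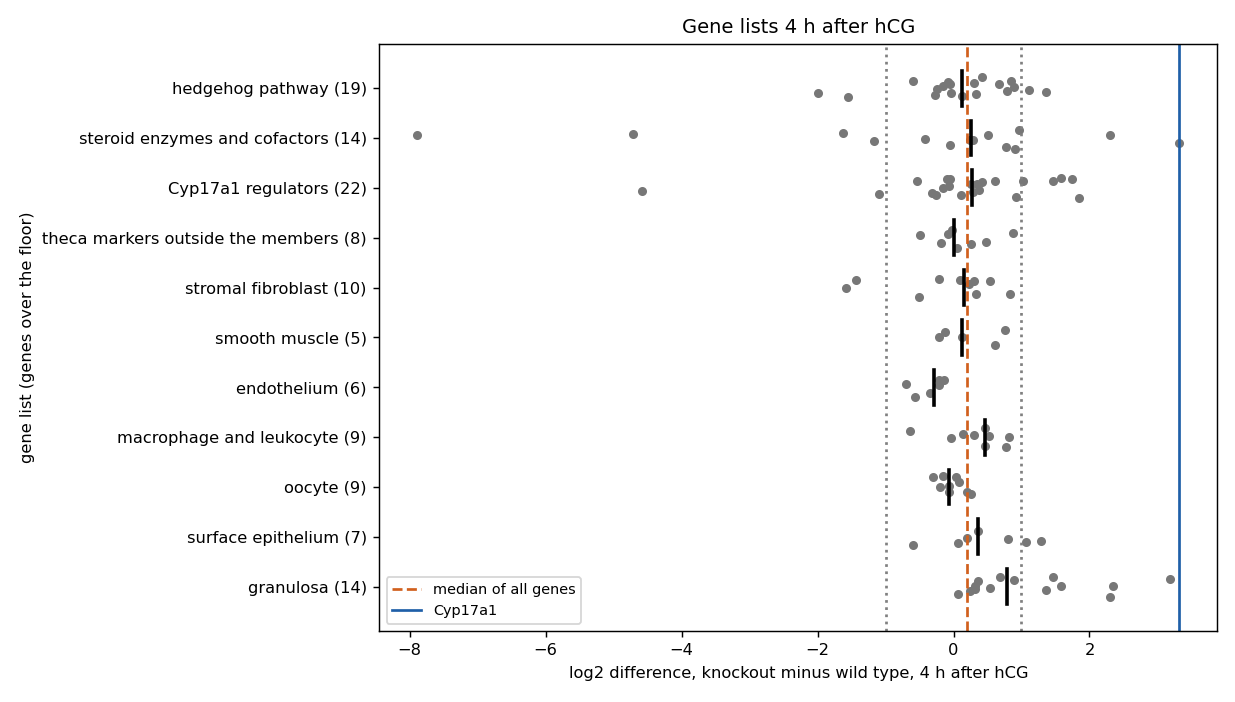
Log2 difference between the knockout and wild type arrays at 4 h for each gene over the floor in 11 lists (points), with the list median as a black bar, the median of all genes as a dashed line, Cyp17a1 as a solid line and 2-fold as dotted lines. The theca, fibroblast and smooth muscle medians lie between 0 and 0.2 (theca and smooth muscle below 0 with cyclic loess, at -0.17 and -0.10), the granulosa median at 0.79 and Cyp17a1 at 3.32.

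Likeness of profile was measured by Pearson's r of log2 values with Cyp17a1 over the 6 arrays, among 3070 other genes over the floor whose arrays spanned at least 2-fold. The arrays share genotype and time, and r mostly reflects the 2 knockout arrays after hCG. The 10 most alike were Arf2, Dip2a, Lzts3, Zbtb42, Ugcg, Trak2, Rai1, Dusp3, Pfkfb2 and Ppp2r2d, with r from 0.98 to 0.99. Dip2a read 1422, 1314 and 988 in wild type, against 1384, 4771 and 5713 in knockout, 5.78-fold higher at 4 h, but its second probe set read 66 to 83 and showed no such difference. Pfkfb2, which controls glycolytic flux, read 277, 393 and 216 in wild type, against 302, 1083 and 1055 in knockout, while its second probe set read 58 to 101 and was lower in knockout at 4 h (-0.25, log2). Ugcg, glucosylceramide synthase, was 2.42-fold higher in knockout at 4 h and Dusp3, a phosphatase, 2.68-fold. Their other probe sets over the floor differed less at 4 h, by 0.40 and 0.13 (log2) for Ugcg and 0.30 for Dusp3.

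The 10 genes were picked by this r, so the members' lower values are no comparison with them. Aldh1a1 had r = 0.61, with 454 genes closer, and Tcf21 r = 0.41, with 704 closer. The values were -0.24 for Hhip, -0.41 for Nr2f2 and -0.73 for Ptch1; Gli1, under the floor, had -0.27. Over the 4 arrays that leave out knockout after hCG, where Cyp17a1 ranged from 1399 to 2037, r was 0.84 for Aldh1a1, 0.69 for Nr2f2, 0.55 for Gli1, 0.49 for Tcf21, 0.37 for Ptch1 and -0.83 for Hhip. Of the 10 genes, Rai1 had -0.20 on those arrays and the others ran from 0.68 (Trak2) to 0.95 (Arf2). Arf2 and Dip2a (0.93) were the highest of the 10 on both sets of arrays. The rest of the order over 6 arrays did not hold there. On the knockout arrays Cyp17a1 was over 7-fold higher after hCG than before it. Of the other 6 measured members, which include Gli1 under the floor, 0 were 2-fold higher there. Of all 11153 genes over the floor, 374 were called higher in knockout at 2.5 h and 432 at 4 h. So 0 of 6 is near the share of all genes, and nothing is read from it.

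**Figure D5:**
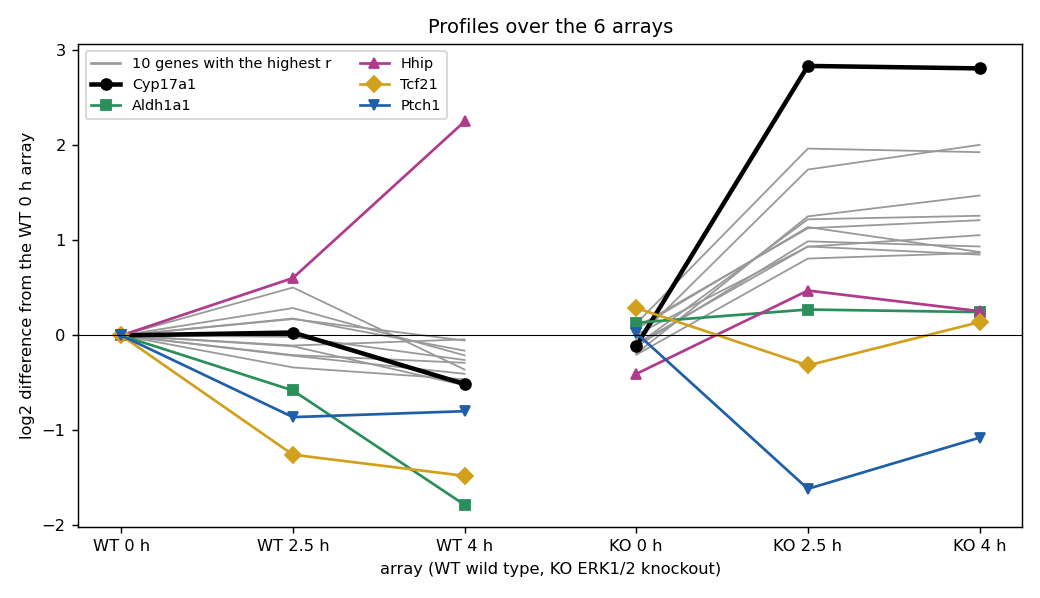
Log2 difference from the wild type 0 h array on each of the 6 arrays for Cyp17a1 (black), the 10 genes with the highest r (grey) and 4 other members. Cyp17a1 and the grey genes are high only on the 2 knockout arrays after hCG, whereas Aldh1a1 and Tcf21 are low on the wild type arrays after hCG and Hhip is highest on the wild type array at 4 h.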

How the data were processed

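RNA from ovarian granulosa cells was measured on 6 Affymetrix arrays, 1 per genotype and time, with values for 45101 probe sets. The authors made intensities with RMA in the affy package, per the submitters' processing notes, with no version or genome build named. As deposited these intensities are linear, rounded to whole numbers (9 to 59425) and scaled to medians of 54 or 55, so dim probe sets change in coarse steps and total RNA per cell cannot be seen. Log2 of each intensity was taken. The precision is limited by the number of arrays, 1 per group. Platform annotation gave 1 gene symbol for 34958 probe sets, several for 932 and none for 9211. Gene IDs of 34754 were found in the RefSeq table of GRCm38.p6. Each gene was represented by its brightest probe set that names it alone, which gave 18194 genes, 11153 of them with a mean log2 of at least 6.

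A difference was called when at least 2-fold with the brighter array at log2 6 or more; 9 pairs of arrays were compared and no test was run. The code that applies the rule was checked on simulated data. Members and lists were chosen with earlier results of these data known. Genes of the lists were named by a rule: called between genotypes at 2.5 h or 4 h (up to 8 per list), and Cyb5a, Por, Ihh and Dhh in any case, and the 2 brightest of each cell type list; the 10 most like Cyp17a1 were named by r. Genes outside it were named after their values were seen. They include Pecam1, Ptprc, Krt7, Msln, Pdgfrb, Mgp, Ano1, Agtr2, Enpep, Inhbb, Fshr, Esr2, Cyp11a1, Fdx1, Hsd3b1, Scarb1 and the theca markers under the floor. Alternatives were cyclic loess (limma 3.58.1, R 4.3.3), the mean of all probe sets, log2 of intensity plus 32, no floor or a floor of 7, 1.5-fold or 3-fold, and the mean of both 0 h arrays as the 0 h level.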

Additional observations from a re-analysis of the deposited data

Results flagged for a closer look

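Responses to hCG at 4 h had opposite signs in the genotypes for 2 members, with at least 2-fold between them. For Cyp17a1 the log2 response was 2.92 in knockout and -0.51 in wild type, a difference of 3.43. For Aldh1a1 it was 0.11 in knockout and -1.78 in wild type, a difference of 1.90. The knockout value of Aldh1a1 is close to 0, and was 0.0026 with cyclic loess, so its opposite sign rests on a 1.08-fold difference. Each response rests on 1 array per time, and neither difference was tested.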

How the results depend on the processing

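Cyp17a1 kept its direction and its side of the 2-fold threshold under all alternatives run wherever it was called. With cyclic loess its log2 difference between genotypes was 2.60 at 2.5 h and 3.10 at 4 h. Counts of members called moved by over 1.5 times as follows. In wild type at 2.5 h the count was 0 with the mean of all probe sets, with 32 added, with a floor of log2 7 and at 3-fold, and 3 at 1.5-fold. In knockout at 2.5 h it was 4 at 1.5-fold and 1 when all probe sets of a gene were averaged. In knockout at 4 h it was 1 under either the mean of all probe sets or 3-fold. Between genotypes at 2.5 h it was 4 at 1.5-fold. All other counts were within 1 of those given, such as 3 in place of 4 between genotypes at 4 h without Tcf21. The losses above were Tcf21, which is dim, and Ptch1, whose other probe sets are dim. Cyclic loess moved the median of all genes between genotypes from 0.14 to 0.01 at 2.5 h and from 0.20 to 0.02 at 4 h. The split of all genes at 4 h was then 349 higher and 476 lower in knockout, against 558 and 392, and at 2.5 h 117 and 386, against 161 and 307. For wild type after hCG it was 455 and 44 at 2.5 h, against 368 and 112, and 680 and 651 at 4 h, against 548 and 1016. The sign of small differences changed with scaling or probe set for Nr2f2, and for Tcf21 in knockout at 4 h (-0.15, or 0.03 with probe sets averaged) and Hhip in knockout from 2.5 h to 4 h (-0.22, or 0.12). No paired analysis was possible because each group has 1 array and the labels carry no replicate numbers. Nothing here measures variation between animals, and signal under 64 limits Gli1, Tcf21 in wild type after hCG and the 2 dimmer probe sets of Hhip.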

Other observations

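These genes were singled out after their values were seen. Nr0b1 (DAX1), a repressor of steroidogenic genes, was lower after hCG in both genotypes. It read 485, 245 and 120 in wild type, against 521, 148 and 129 in knockout, about level between genotypes at 4 h (1.08-fold). Boc, a co-receptor for hedgehog ligands, was higher after hCG in both, at 138, 520 and 327 in wild type, against 114, 640 and 519 in knockout, and a second probe set over the floor gave the same order.

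The fibroblast list held 2 genes that stood apart from it. Pdgfrb, a growth factor receptor of perivascular and stromal cells, read 213, 379 and 264 in wild type, against 105, 66 and 98 in knockout. Mgp, a matrix protein, read 943, 1538 and 2052 in wild type, against 553, 483 and 689 in knockout. Both were lower in knockout at all 3 times, Pdgfrb by at least 2-fold each time and Mgp after hCG. Krt7, a keratin of surface epithelium, was higher in knockout at all 3 times, by 2.93-fold, 2.96-fold and 2.45-fold.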
